A study of Mus musculus with 48 samples.

Results

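Hal, Uroc1, Amdhd1, Ftcd, Sds, Agxt, Dmgdh and Sardh encode liver enzymes that break down histidine, serine and choline-derived methylglycines, or that make glycine from glyoxylate. They were taken by gene name from an RNA table of 37583 mouse genes, and all 8 were among the 17771 genes tested. Peaks of the liver transcription factors C/EBPα and HNF4α near each gene were read from 20 ChIP-seq peak lists (chromatin immunoprecipitation with sequencing), 2 replicates per factor and stage.

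RNA was sequenced in 3 liver libraries of C/EBPa lox/lox mice with Alfp-Cre (C/EBPα KO), 2 of HNF4a lox/lox mice with Alfp-Cre (HNF4α KO) and 3 of wild-type (WT) mice. In the knockouts, Cre recombinase is driven by the Alfp promoter, which is active in the liver cell lineage, so cells of other lineages keep the gene. The peak lists are of wild-type liver before birth, at embryonic day 15.5 (E15.5) and 18.5 (E18.5), and after it, at 0.5 (P0.5), 14 (P14) and 60 days (P60). All mice were untreated F1 animals of C57Bl6/CBA background, and the animals are described as age-matched males. The age of the RNA livers is uncertain: their sample labels put them at 60 postnatal days, whereas the study's design text puts them at E18.5. The labels do not say whether livers were pooled, or which of the diets named, standard chow or high fat, each animal ate.

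Histidine breakdown starts with histidine ammonia-lyase (Hal), which removes ammonia to give urocanate, and goes on through urocanate hydratase (Uroc1) and imidazolonepropionase (Amdhd1). Formimidoyltransferase cyclodeaminase (Ftcd) then passes a one-carbon unit of histidine to tetrahydrofolate, the carrier of one-carbon units in the cell. Serine dehydratase (Sds) turns serine into pyruvate, and alanine-glyoxylate aminotransferase (Agxt) turns glyoxylate into glycine; its loss in humans causes primary hyperoxaluria. Dimethylglycine dehydrogenase (Dmgdh) and sarcosine dehydrogenase (Sardh) are mitochondrial enzymes that act in turn on the way from choline to glycine, again with folate as the acceptor. These reactions are most active in hepatocytes.

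The stretch of DNA just before the start site is shown for the 3 genes in which either of a pair of simple motifs was found: Hal, whose RNA was lowest relative to WT in the C/EBPα KO, Ftcd, which had no C/EBPα peak at its start site, and Agxt, which had peaks of both factors there. Each line gives the 250 bases before the start site, from RefSeq on build GRCm38.p6, on the gene's own strand, which is the plus strand in all 3. Capitals mark a match, on either strand, to TTNNGCAA for C/EBP or CAAAGNNCA for HNF4. The windows are chr10:93488518-93488767 for Hal, chr10:76575398-76575647 for Ftcd and chr1:93134990-93135239 for Agxt.
Hal: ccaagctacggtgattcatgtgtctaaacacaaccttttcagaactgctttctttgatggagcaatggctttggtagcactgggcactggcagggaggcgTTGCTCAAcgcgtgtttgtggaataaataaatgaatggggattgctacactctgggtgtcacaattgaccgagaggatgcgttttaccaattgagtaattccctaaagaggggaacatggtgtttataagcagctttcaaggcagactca
Ftcd: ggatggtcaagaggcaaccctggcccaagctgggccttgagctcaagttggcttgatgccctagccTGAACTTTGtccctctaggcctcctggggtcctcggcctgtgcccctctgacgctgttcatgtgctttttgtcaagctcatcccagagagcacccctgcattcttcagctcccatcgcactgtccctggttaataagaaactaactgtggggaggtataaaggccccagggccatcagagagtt
Agxt: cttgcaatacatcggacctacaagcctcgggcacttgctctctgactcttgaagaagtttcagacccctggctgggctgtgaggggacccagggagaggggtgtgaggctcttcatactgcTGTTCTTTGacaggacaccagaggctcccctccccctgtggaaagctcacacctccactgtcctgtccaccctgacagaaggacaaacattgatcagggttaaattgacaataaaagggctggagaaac

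Hal held 1 match to the C/EBP motif, between 150 and 143 bases before the start site. Ftcd held 1 match to the HNF4 motif, between 184 and 176 bases before it, and Agxt held 1, between 129 and 121 bases before it. Of 32851 promoter windows of the same length, 9.56% held the C/EBP motif, 5.49% the HNF4 motif and 14.3% either. No match lay in the windows of Uroc1, Amdhd1, Dmgdh and Sardh, and 7 of the 8 genes had a promoter sequence. Such matches describe the letters and are no evidence of binding, and the peaks below are on another build, mm9, whose start sites were not matched to these windows.

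The RNA values are reads normalized and rounded by the authors, with library totals of 13.4 to 16.4 M in the C/EBPα KO, 20 to 26 M in the HNF4α KO and 20.4 to 22.5 M in WT. Cebpa RNA was at 6.93% of its WT mean in the C/EBPα KO, and Hnf4a RNA at 26.6% of its WT mean in the HNF4α KO. The 6 hepatocyte markers in the table were present in every library. Their summed level was 321487 to 1185177 in the C/EBPα KO, 807001 to 1297203 in the HNF4α KO and 2556257 to 4142135 in WT, most of it from Alb and Afp. Of the 6, none passed in the C/EBPα KO, where Ttr was at 97.1% of its WT mean and Ttr, Apoa1 and Apob overlapped WT, and Apob alone passed in the HNF4α KO. All 5 bile duct markers were in the table, with a summed level of 6824 to 9191 in the C/EBPα KO, 1931 to 2101 in the HNF4α KO and 1084 to 2262 in WT. In the HNF4α KO the sums were above all WT libraries for 6 erythroid markers (2314350 to 3674547, against 603158 to 2079894 in WT), 5 macrophage markers (16762 to 20426, against 8958 to 11344) and 6 pancreatic acinar markers (708 to 809, against 238 to 521). HNF4α KO replicate 1 stood apart: 6 skeletal muscle markers summed to 576604 there, 2.22% of its total, against 215 in HNF4α KO replicate 2, 118 to 994 in the C/EBPα KO and 92 to 192 in WT. For each library, the log2 deviation of a gene from its mean over the 8 libraries was correlated by rank with its GC content. This correlation ran from -0.32 to 0.28 in the C/EBPα KO, was 0.36 and 0.33 in the HNF4α KO, and ran from -0.49 to -0.01 in WT. The values are thus relative to the other libraries.

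In the C/EBPα KO against WT, 7 of the 8 enzymes fell, and in the HNF4α KO against WT, 6 of the 8 fell. The background share of all genes tested that fell was 2.86% for the C/EBPα KO and 3.17% for the HNF4α KO, by limma with Benjamini-Hochberg adjusted p under 0.05. None of the 8 rose in either, whereas a rise was called for 0.883% of all genes in the C/EBPα KO and 1.54% in the HNF4α KO. The C/EBPα KO shares depend on the scaling: 324 genes fell and 474 rose with libraries scaled to their totals, against 509 and 157 with the deposited scaling, and 5 of the 8 enzymes then fell. The median log2 change of the 8 was -3.96 in the C/EBPα KO and -2.62 in the HNF4α KO, against 0.03 and 0.02 over all genes tested. All 8 had every library of either knockout below every WT library, as did 10.3% of all genes in the C/EBPα KO and 22.4% in the HNF4α KO. The opposite order, every knockout library above WT, was seen in 8.54% of genes in the C/EBPα KO and 22.1% in the HNF4α KO. The comparisons of both knockouts use the same WT libraries. In whole liver, fewer hepatocytes and less RNA per hepatocyte cannot be told apart, and the part of the lower hepatocyte marker sums, or of the other marker sums, in these changes was not tested.

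**Figure D1:**
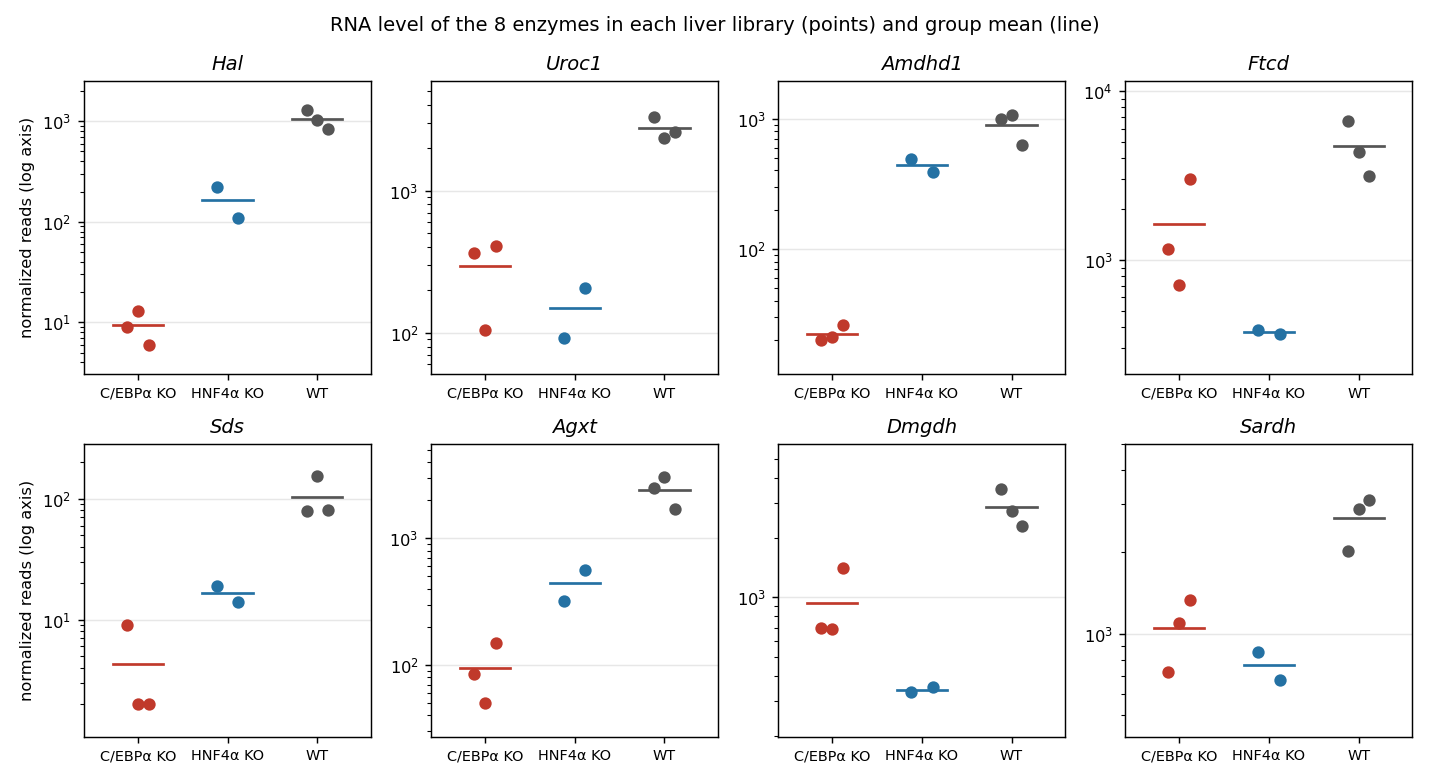
Normalized reads of the 8 enzymes on a log axis, 1 point per library, with lines at the means of 3 C/EBPα KO, 2 HNF4α KO and 3 WT libraries. The knockout points lie below all WT points in every panel, and the lower knockout is the C/EBPα KO for Hal, Amdhd1, Sds and Agxt.

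Hal, the first enzyme of the pathway (ENSMUSG00000020017, chr10:92951513-92982049, plus strand, mm9), had 9, 13 and 6 normalized reads in the C/EBPα KO, 222 and 109 in the HNF4α KO, and 1279, 1019 and 840 in WT. The 3 groups did not overlap, and the C/EBPα KO was at 0.892% of the WT mean and the HNF4α KO at 15.8%. Hal fell by 6.70 ± 0.45 on the log2 scale (SE; limma adjusted p = 2.75e-05) in the C/EBPα KO and fell by 2.72 ± 0.51 (adjusted p = 0.011) in the HNF4α KO. The first is the largest fall among the 8 enzymes.

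Uroc1, which acts on urocanate (ENSMUSG00000034456, chr6:90283283-90314545, plus strand), had 367, 104 and 409 normalized reads in the C/EBPα KO, 92 and 207 in the HNF4α KO, and 3290, 2355 and 2571 in WT. The knockouts overlapped each other and both lay far below WT. Uroc1 fell by 3.43 ± 0.52 (adjusted p = 0.00326) in the C/EBPα KO and fell by 4.29 ± 0.58 (adjusted p = 0.0018) in the HNF4α KO.

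Amdhd1, the third enzyme (ENSMUSG00000015890, chr10:92986083-93002778, minus strand), had 20, 21 and 26 normalized reads in the C/EBPα KO, 487 and 388 in the HNF4α KO, and 989, 1063 and 628 in WT. The C/EBPα KO was thus at 2.5% of the WT mean, whereas the HNF4α KO was at 49% and close under the lowest WT library. Amdhd1 fell by 5.23 ± 0.37 (adjusted p = 2.75e-05) in the C/EBPα KO. Its HNF4α KO estimate of -1.0 ± 0.41 did not pass (adjusted p = 0.198; 95% interval -1.90 to -0.10). Hal and Amdhd1 lie tail to tail on chromosome 10, with their 3′ ends 4033 bp apart and no other gene of the table between them.

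Ftcd, the last step, which links the pathway to folate (ENSMUSG00000001155, chr10:76038393-76053083, plus strand), had 1155, 708 and 3008 normalized reads in the C/EBPα KO, 386 and 366 in the HNF4α KO, and 6614, 4333 and 3157 in WT. C/EBPα KO replicate 3 was close under the lowest WT library, while both HNF4α KO libraries lay below all others, the nearest being C/EBPα KO replicate 2 at 708. Ftcd fell by 3.57 ± 0.55 (adjusted p = 0.00383) in the HNF4α KO. Its C/EBPα KO estimate of -1.73 ± 0.49 did not pass (adjusted p = 0.0918; 95% interval -2.81 to -0.65), and without C/EBPα KO replicate 3 it was -2.31 ± 0.38 (adjusted p = 0.00608).

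Within a library, the ratio of Hal to Uroc1 reads was 0.0245, 0.125 and 0.0147 in the C/EBPα KO, 2.41 and 0.527 in the HNF4α KO, and 0.389, 0.433 and 0.327 in WT. The ratio of Amdhd1 to Ftcd was 0.0173, 0.0297 and 0.00864 in the C/EBPα KO, 1.26 and 1.06 in the HNF4α KO, and 0.15, 0.245 and 0.199 in WT. Both ratios were lowest in the C/EBPα KO and highest in the HNF4α KO, with no overlap between groups. That order follows from the changes of the single genes given above, and Hal to Ftcd and Amdhd1 to Uroc1 took it too. Hal to Amdhd1 did not, at 0.231 to 0.619 in the C/EBPα KO, 0.281 to 0.456 in the HNF4α KO and 0.959 to 1.34 in WT. Dmgdh to Sardh, Ftcd to Uroc1 and Agxt to Sds overlapped between groups. Ratios of other gene pairs were not computed. Reads were not divided by gene length, so the ratios compare libraries and do not say which enzyme had more RNA.

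Sds, serine dehydratase (ENSMUSG00000029597, chr5:120926540-120933941, plus strand), was the enzyme with the fewest reads, at 9, 2 and 2 in the C/EBPα KO, 19 and 14 in the HNF4α KO, and 79, 153 and 80 in WT. The groups did not overlap, and Sds fell by 4.48 ± 0.69 (adjusted p = 0.00358) in the C/EBPα KO. Its HNF4α KO estimate of -2.53 ± 0.77 did not pass (adjusted p = 0.091), and it was -2.05 ± 0.46 with an adjusted p of 0.029 when 10 in place of 1 was added before taking logs, and at an adjusted p of 0.0332 with only the groups compared in the fit. At such low values the log2 change depends on the number added.

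Agxt, which makes glycine from glyoxylate in peroxisomes and mitochondria (ENSMUSG00000026272, chr1:95031822-95041984, plus strand), had 85, 50 and 148 normalized reads in the C/EBPα KO, 321 and 566 in the HNF4α KO, and 2484, 3021 and 1705 in WT. The groups did not overlap and took the same order as for Hal. Agxt fell by 4.75 ± 0.44 (adjusted p = 0.000127) in the C/EBPα KO and fell by 2.45 ± 0.49 (adjusted p = 0.0157) in the HNF4α KO.

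Dmgdh, which acts before Sardh (ENSMUSG00000042102, chr13:94444388-94522786, plus strand), had 697, 694 and 1401 normalized reads in the C/EBPα KO, 333 and 351 in the HNF4α KO, and 3534, 2725 and 2299 in WT. Here the HNF4α KO was the lowest group, at 12% of the WT mean, with the C/EBPα KO at 32.6%. Dmgdh fell by 1.68 ± 0.35 (adjusted p = 0.022) in the C/EBPα KO and fell by 3.03 ± 0.39 (adjusted p = 0.00132) in the HNF4α KO.

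Sardh (ENSMUSG00000009614, chr2:27043913-27103857, minus strand) had 721, 1097 and 1328 normalized reads in the C/EBPα KO, 859 and 674 in the HNF4α KO, and 2022, 2882 and 3098 in WT. The knockouts overlapped each other, at 39.3% of the WT mean in the C/EBPα KO and 28.7% in the HNF4α KO. Sardh fell by 1.37 ± 0.33 (adjusted p = 0.0471) in the C/EBPα KO and fell by 1.78 ± 0.37 (adjusted p = 0.0202) in the HNF4α KO. Its fall in the C/EBPα KO was the smallest among the 8 enzymes and was the nearest to the threshold.

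Each of the 8 libraries was left out in turn. In the C/EBPα KO against WT, Hal, Uroc1, Amdhd1, Sds and Agxt passed in all 8 refits. Dmgdh passed in 4, and lost its call without WT replicate 1 or 2 or C/EBPα KO replicate 1 or 2 (adjusted p up to 0.143), and Sardh passed only without C/EBPα KO replicate 3 (up to 0.169). In the HNF4α KO against WT, Uroc1, Ftcd and Dmgdh passed in all 8 refits. Hal lost its call without WT replicate 1 or HNF4α KO replicate 2 (up to 0.108), Agxt without WT replicate 1 or 2 or HNF4α KO replicate 1 (up to 0.237), and Sardh without WT replicate 2 or 3 or either HNF4α KO library (up to 0.14). Without HNF4α KO replicate 1, the library with muscle RNA, 4 enzymes passed in the HNF4α KO, and the remaining sample was assumed to vary like the other groups.

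The calls of Dmgdh and Sardh in the C/EBPα KO also depended on the fit. Scaled to library totals, Dmgdh (-1.17 ± 0.35, adjusted p = 0.0837) and Sardh (-0.86 ± 0.33, adjusted p = 0.151) did not pass there, nor did they without a variance trend (adjusted p = 0.0684 for Dmgdh and 0.112 for Sardh). Sardh lost that call as well without the filter on low values, with upper-quartile scaling and with only the groups compared in the fit (adjusted p between 0.0609 and 0.0834). In the HNF4α KO, Sardh did not pass without a variance trend (adjusted p = 0.0579). Without both WT replicate 3 and C/EBPα KO replicate 1, the libraries with the lowest correlation with GC content, Uroc1 (adjusted p = 0.0514), Dmgdh (0.155) and Sardh (0.353) did not pass in the C/EBPα KO, and Hal (0.0585), Agxt (0.0655) and Sardh (0.0846) did not pass in the HNF4α KO.

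The difference between the knockouts was tested in the same fit. In the C/EBPα KO against the HNF4α KO, 3 of the 8 enzymes were lower and none higher, against a background of 1.87% of all genes lower and 1.61% higher. Amdhd1 had a log2 change of -4.23 ± 0.41 (adjusted p = 0.000912), Hal of -3.98 ± 0.51 (adjusted p = 0.00245) and Agxt of -2.30 ± 0.49 (adjusted p = 0.0296). Ftcd and Dmgdh had every C/EBPα KO library above both HNF4α KO libraries, as did 17.4% of all genes, but their log2 changes of 1.84 ± 0.55 (adjusted p = 0.101) and 1.36 ± 0.39 (adjusted p = 0.0924) did not pass. Uroc1, at 0.85 ± 0.58 (adjusted p = 0.458), Sardh, at 0.42 ± 0.37 (adjusted p = 0.587), and Sds, at -1.95 ± 0.77 (adjusted p = 0.206), did not pass either. The median over the 8 was -0.76, against 0 over all genes.

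The calls of Hal and Agxt between the knockouts rested on single libraries. Without HNF4α KO replicate 1, Amdhd1 alone passed (adjusted p = 0.0204), and Hal was at an adjusted p of 0.0508. Agxt lost its call without WT replicate 1, C/EBPα KO replicate 1 or either HNF4α KO library, with adjusted p up to 0.192. When libraries were scaled to their totals, Agxt did not pass (log2 change -1.72 ± 0.52, adjusted p = 0.0749), while Ftcd (2.42 ± 0.53, adjusted p = 0.0267) and Dmgdh (1.94 ± 0.40, adjusted p = 0.0186) did. Agxt did not pass either without the filter, without a variance trend, with only the groups compared, or without both libraries of lowest GC correlation (adjusted p between 0.0534 and 0.137).

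**Figure D2:**
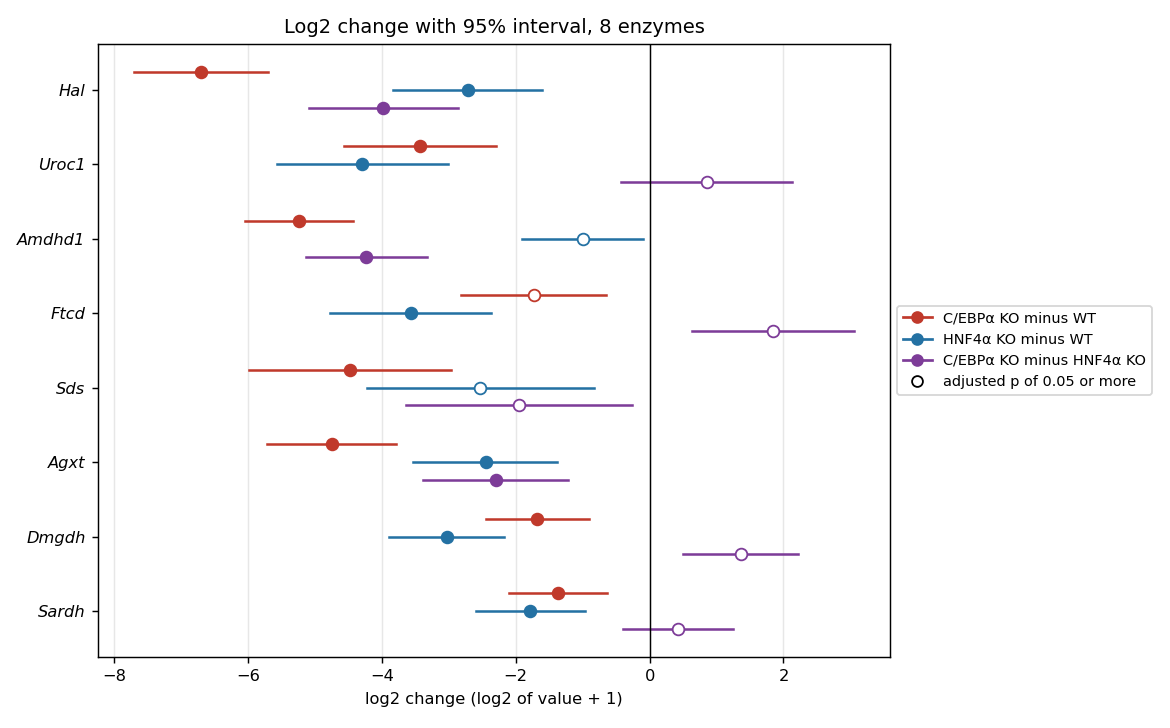
Log2 change (horizontal axis) with 95% interval for each enzyme, in the C/EBPα KO minus WT, the HNF4α KO minus WT and the C/EBPα KO minus the HNF4α KO. Filled points passed an adjusted p of 0.05; in the comparison of the knockouts only Hal, Amdhd1 and Agxt are filled, all to the left of 0.

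The neighbouring enzymes of these routes were described from a list of 40 genes, 39 of them tested. In the C/EBPα KO against WT 11 fell and 1 rose, and in the HNF4α KO against WT 13 fell and none rose. Over all genes tested, 2.86% fell and 0.883% rose in the C/EBPα KO, and 3.17% fell and 1.54% rose in the HNF4α KO. The median log2 change of the 39 was -0.76 in the C/EBPα KO and -0.73 in the HNF4α KO, nearer to 0 than that of the 8 enzymes. The counts moved with single libraries. For the C/EBPα KO, 3 genes passed without WT replicate 1, 6 without WT replicate 2, and 7 without WT replicate 3, C/EBPα KO replicate 1 or C/EBPα KO replicate 2. For the HNF4α KO, 7 passed without HNF4α KO replicate 1.

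Among the enzymes upstream of and beside Dmgdh and Sardh, choline dehydrogenase (Chdh) oxidizes choline on the way to betaine. Betaine-homocysteine methyltransferase (Bhmt) makes dimethylglycine. Bhmt had a log2 change of -5.52 ± 0.62 (adjusted p = 0.000685) and Chdh of -3.26 ± 0.60 (adjusted p = 0.0108) in the HNF4α KO. In the C/EBPα KO neither passed, with Bhmt at -1.23 ± 0.55 (adjusted p = 0.336) and Chdh at -1.35 ± 0.54 (adjusted p = 0.262). Glycine N-methyltransferase (Gnmt), which makes sarcosine from glycine, fell in the C/EBPα KO (-2.79 ± 0.50, adjusted p = 0.00869), while its HNF4α KO estimate was -1.41 ± 0.56 (adjusted p = 0.184). Pipox, a peroxisomal sarcosine oxidase, fell by 1.53 ± 0.30 (adjusted p = 0.0168) in the C/EBPα KO and fell by 3.59 ± 0.34 (adjusted p = 0.000345) in the HNF4α KO. Bhmt2 fell in both knockouts, and Aldh7a1, a betaine aldehyde dehydrogenase, fell in the C/EBPα KO (-1.43 ± 0.28, adjusted p = 0.0169).

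Electrons from Dmgdh and Sardh pass to the electron transfer flavoprotein. Its subunit Etfa fell in the C/EBPα KO (-1.39 ± 0.29, adjusted p = 0.0204), and its dehydrogenase Etfdh fell in the HNF4α KO (-1.81 ± 0.38, adjusted p = 0.0221). In the other knockout, Etfa was at -1.22 ± 0.32 (adjusted p = 0.0564) and Etfdh at -0.9 ± 0.34 (adjusted p = 0.236). Neither passed between the knockouts (adjusted p = 0.821 for Etfa and 0.237 for Etfdh). Etfb, the other subunit, passed in neither knockout. In the glycine cleavage system, Gldc, the decarboxylase, fell by 3.50 ± 0.49 (adjusted p = 0.00188) in the C/EBPα KO and fell by 3.35 ± 0.54 (adjusted p = 0.00492) in the HNF4α KO. Amt, the aminomethyltransferase of the same system, was the 1 listed gene that rose in the C/EBPα KO (1.66 ± 0.40, adjusted p = 0.0433). Gcsh and Dld, the other components, passed in neither.

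Of 6 listed glyoxylate genes, 2 fell in the C/EBPα KO and 5 fell in the HNF4α KO, against 2.86% and 3.17% of all genes tested. Hao1, the glycolate oxidase that makes the glyoxylate used by Agxt, fell by 1.58 ± 0.34 (adjusted p = 0.0272) in the C/EBPα KO and fell by 4.75 ± 0.38 (adjusted p = 0.000171) in the HNF4α KO. Agxt2, a mitochondrial aminotransferase that also accepts glyoxylate, fell by 1.91 ± 0.44 (adjusted p = 0.0339) in the C/EBPα KO and fell by 4.07 ± 0.49 (adjusted p = 0.000943) in the HNF4α KO. Hoga1, Prodh2 and Glyctk fell in the HNF4α KO, with log2 changes between -3.84 and -2.55. Tested directly, the same 5 genes, Hao1, Agxt2, Hoga1, Prodh2 and Glyctk, were higher in the C/EBPα KO than in the HNF4α KO, with log2 changes between 1.99 and 3.16, whereas Agxt was lower there. Over all genes tested, 1.61% were higher and 1.87% lower in the C/EBPα KO than in the HNF4α KO. Of all listed neighbours, 9 were higher and 2 lower in that comparison, with 5 passing without HNF4α KO replicate 2 and 1 without HNF4α KO replicate 1.

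In the route that moves sulfur onto the carbons of serine, Cth, cystathionine gamma-lyase, which releases cysteine, fell by 4.36 ± 0.39 (adjusted p = 0.000113) in the C/EBPα KO and fell by 2.11 ± 0.44 (adjusted p = 0.019) in the HNF4α KO. Cbs, cystathionine beta-synthase, which takes up serine, fell by 2.51 ± 0.33 (adjusted p = 0.00152) in the C/EBPα KO and was at 0.10 ± 0.37 (adjusted p = 0.897) in the HNF4α KO. Sdsl, a paralog of Sds, and Srr, serine racemase, passed in neither. None of Phgdh, Psat1 and Psph, which synthesize serine, passed in either knockout by limma, with estimates from -0.32 to 1.26. The unadjusted p was under 0.05 for Psph alone, in the C/EBPα KO (1.26 ± 0.33, unadjusted p = 0.00272, adjusted p = 0.0647).

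Of 10 folate one-carbon genes, Aldh1l1, the cytosolic formyltetrahydrofolate dehydrogenase, fell in the C/EBPα KO (-2.81 ± 0.55, adjusted p = 0.0162). Shmt1, the cytosolic enzyme that interconverts serine and glycine, fell in the HNF4α KO (-1.67 ± 0.31, adjusted p = 0.0109). The mitochondrial Shmt2 and Mthfd2 had positive estimates in the HNF4α KO that did not pass, at 0.82 ± 0.36 (adjusted p = 0.222) and 1.19 ± 0.33 (adjusted p = 0.0647). Hdc and Hnmt, which make and inactivate histamine by another route from histidine, and Gcat, which makes glycine from threonine, passed in neither knockout.

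**Figure D3:**
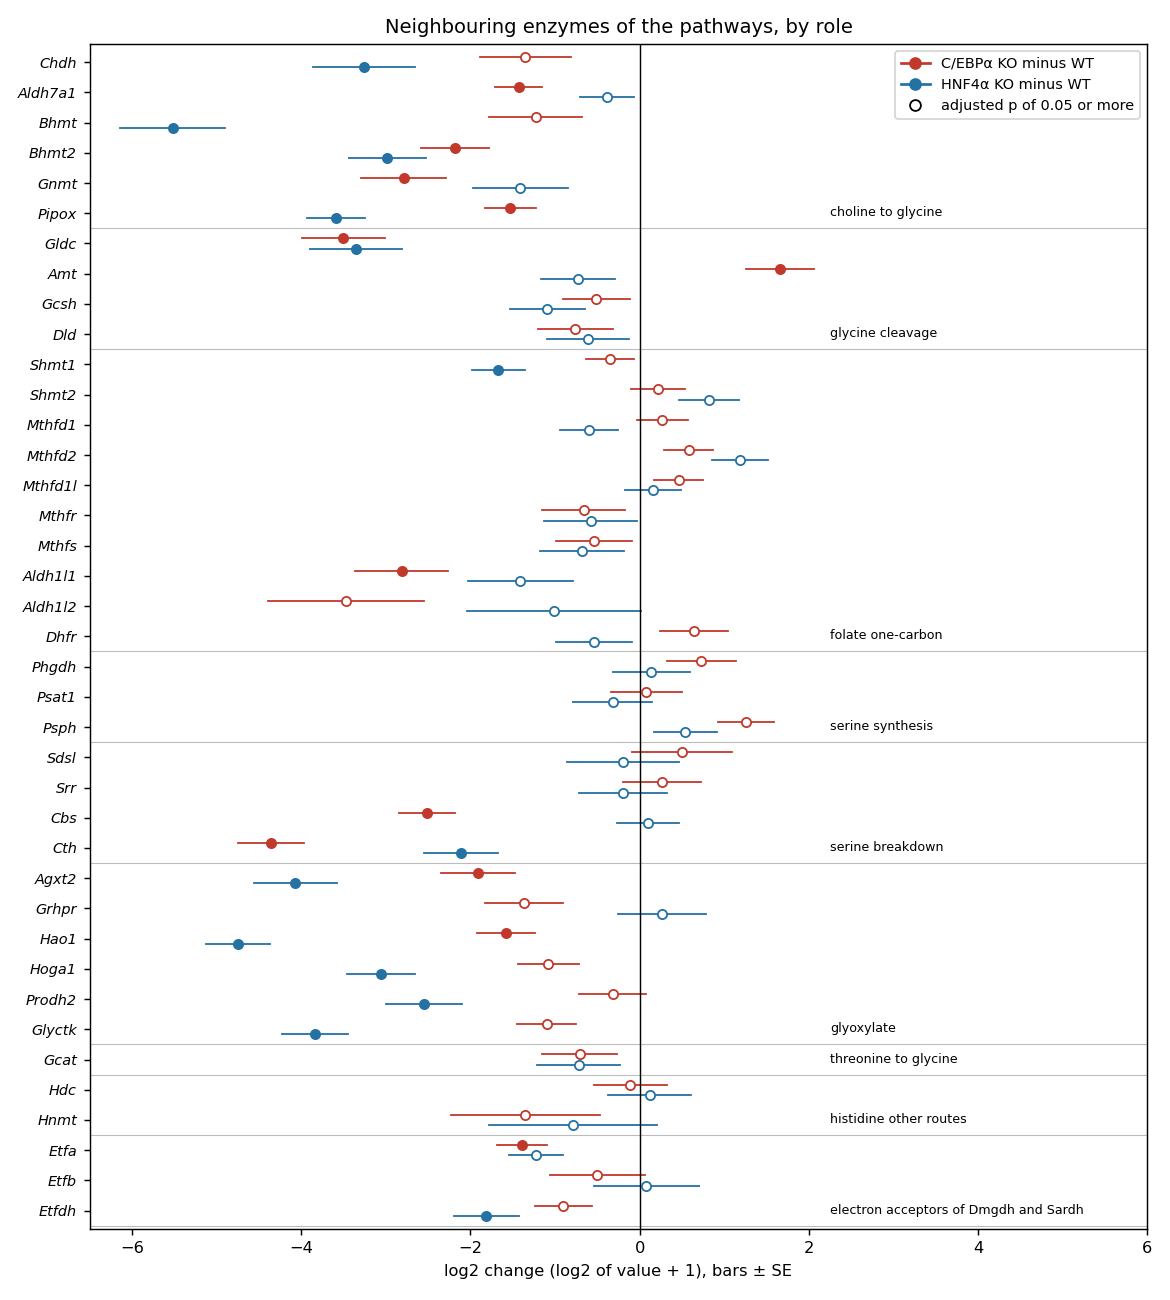
Log2 change ± SE (horizontal axis) of the 39 neighbouring genes tested, grouped by role, in the C/EBPα KO minus WT and the HNF4α KO minus WT. Filled points passed an adjusted p of 0.05; in the glyoxylate group the 5 filled HNF4α KO points lie between -4.75 and -2.55.

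The genes most like the mean of the 8 enzymes over the 8 libraries, by Pearson correlation of log2 values, were Ces1d (r = 0.9966), Aldh8a1 (0.9939), Hrg (0.992), Tmcc3 (0.9908) and 1600014C10Rik (0.9906). Those most like Hal were Cyp2c68 (0.9947), Fmo1 (0.994) and Hpd (0.9915), and those most like Sardh were F10 (0.9627), Hsd17b6 (0.9627) and Cyp4a14 (0.9614). These correlations describe libraries that fall into 3 genotypes, and they carry no test.

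In wild-type liver, peaks of both factors lay within 1 kb of the start sites of Hal, Uroc1, Amdhd1, Agxt and Sardh. All 5 had both factors there at the same stage, in both lists of each factor, only at P60. A gene was counted as bound at a stage when each replicate list held a peak overlapping the window within 1 kb of its start site. For C/EBPα, 3 of the 8 genes were bound at E15.5 and 5 at each of E18.5, P0.5, P14 and P60, against backgrounds of 6.8%, 32.7%, 47.3%, 26.4% and 24.7% of genes tested. For HNF4α, 6 genes were bound at E15.5, 3 at E18.5, 5 at P0.5, 4 at P14 and 7 at P60, against backgrounds of 22.1%, 6.08%, 22.8%, 21.4% and 29.5%. At P0.5 the HNF4α replicates hold the same peaks, line for line, and count as 1 library. These counts were not tested.

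The backgrounds moved with the lists. C/EBPα lists held 13434 and 16900 peaks at E15.5 but 70171 to 121624 at E18.5 and P0.5. HNF4α replicates at E18.5 shared the least, with 35.6% of replicate 1 peaks and 46% of replicate 2 peaks overlapping the other list, against 71.2% to 91.8% at E15.5, P14 and P60. The HNF4α lists at E18.5, with 53278 and 41199 peaks, were as long as those at E15.5, with 50864 and 39433, yet fewer genes had a peak within 1 kb of the start site in replicate 1 (10.6% at E18.5 and 34.4% at E15.5). The part of list length and of overlap between replicates in the number of bound genes was not tested.

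**Figure D4:**
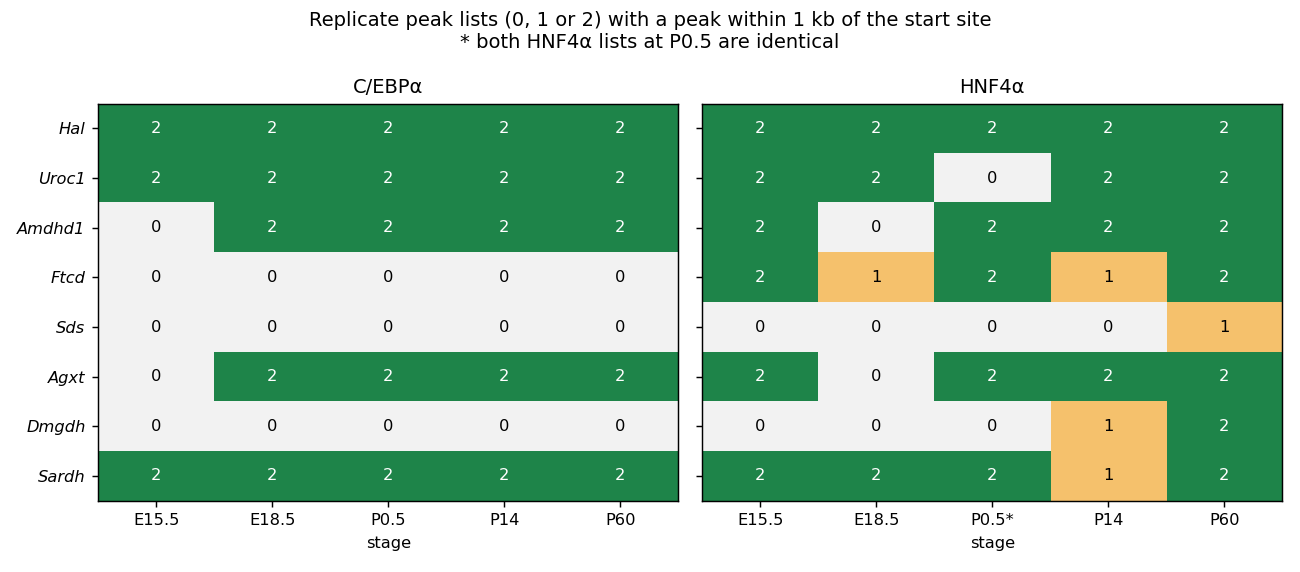
Number of replicate peak lists (0, 1 or 2) with a peak within 1 kb of each start site, by factor and stage from E15.5 to P60. Hal has 2 in every column of both factors, Ftcd and Dmgdh have 0 in every C/EBPα column, and Sds has a single HNF4α list at P60.

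Hal was the 1 gene with peaks of both factors within 1 kb of its start site at all 5 stages. Its merged site reached from -1649 to 1057 bp, with positions counted from the start site and negative upstream. Uroc1 had C/EBPα there at all 5 stages and HNF4α at all but P0.5, when its HNF4α peak lay upstream, in a site from -9208 to -7441 bp. Sardh had C/EBPα at all 5 stages, and HNF4α within 1 kb in both lists at all but P14.

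Amdhd1 and Agxt shared a pattern. Both had C/EBPα within 1 kb of the start from E18.5 on and not at E15.5, and both had HNF4α at all stages but E18.5. For Amdhd1 the C/EBPα peaks lay inside the gene, in a site from 591 to 1929 bp, and no C/EBPα peak of both replicates overlapped the start site itself. For Agxt a site from -531 to 539 bp covered the start. Agxt also had a site from -2894 to -1737 bp that both factors occupied at all 5 stages, so C/EBPα was near the gene at E15.5 too.

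Ftcd and Dmgdh had no C/EBPα peak within 1 kb of the start in any list. Ftcd had HNF4α there in both lists at E15.5, P0.5 and P60 and in 1 list at E18.5 and P14. A second HNF4α site of Ftcd, from -6017 to -4608 bp, was occupied at all 5 stages and held no C/EBPα peak of both replicates. C/EBPα peaks of both lists lay within 10 kb of the Ftcd start only at P0.5 and P60. At P0.5 they included peaks just outside the 1 kb window, from 1146 to 1676 bp in replicate 1 and from 1170 to 1572 bp in replicate 2. Dmgdh had HNF4α at its start in both lists only at P60, in a site from -491 to 311 bp. Another site, from -2853 to -825 bp, held C/EBPα at all 5 stages and HNF4α at all but E18.5. Bhmt2 (chr13:94425675-94444257, minus strand, mm9) lies head to head with Dmgdh. The site from -491 to 311 bp also covers the Bhmt2 start, and the other site lies inside Bhmt2. Which of the genes these peaks act on was not tested. Inside Dmgdh, a site from 35713 to 37977 bp was occupied by both factors at all 5 stages.

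Sds had no peak of both replicates within 1 kb of its start, with either factor. Its peaks lay further upstream. A site from -8525 to -7117 bp held C/EBPα at every stage but E15.5 and HNF4α at every stage but E18.5. Another, from -5454 to -4184 bp, held HNF4α at all 5 stages and C/EBPα at 3. Both sites lie inside Sdsl, the paralog of Sds (chr5:120908195-120922819, minus strand, mm9). A further site, from -4081 to -3101 bp (chr5:120922459-120923439), covers the Sdsl start. Which of the genes these peaks act on was not tested. A site inside Sds, from 5768 to 6395 bp, held C/EBPα alone, at 4 stages.

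**Figure D5:**
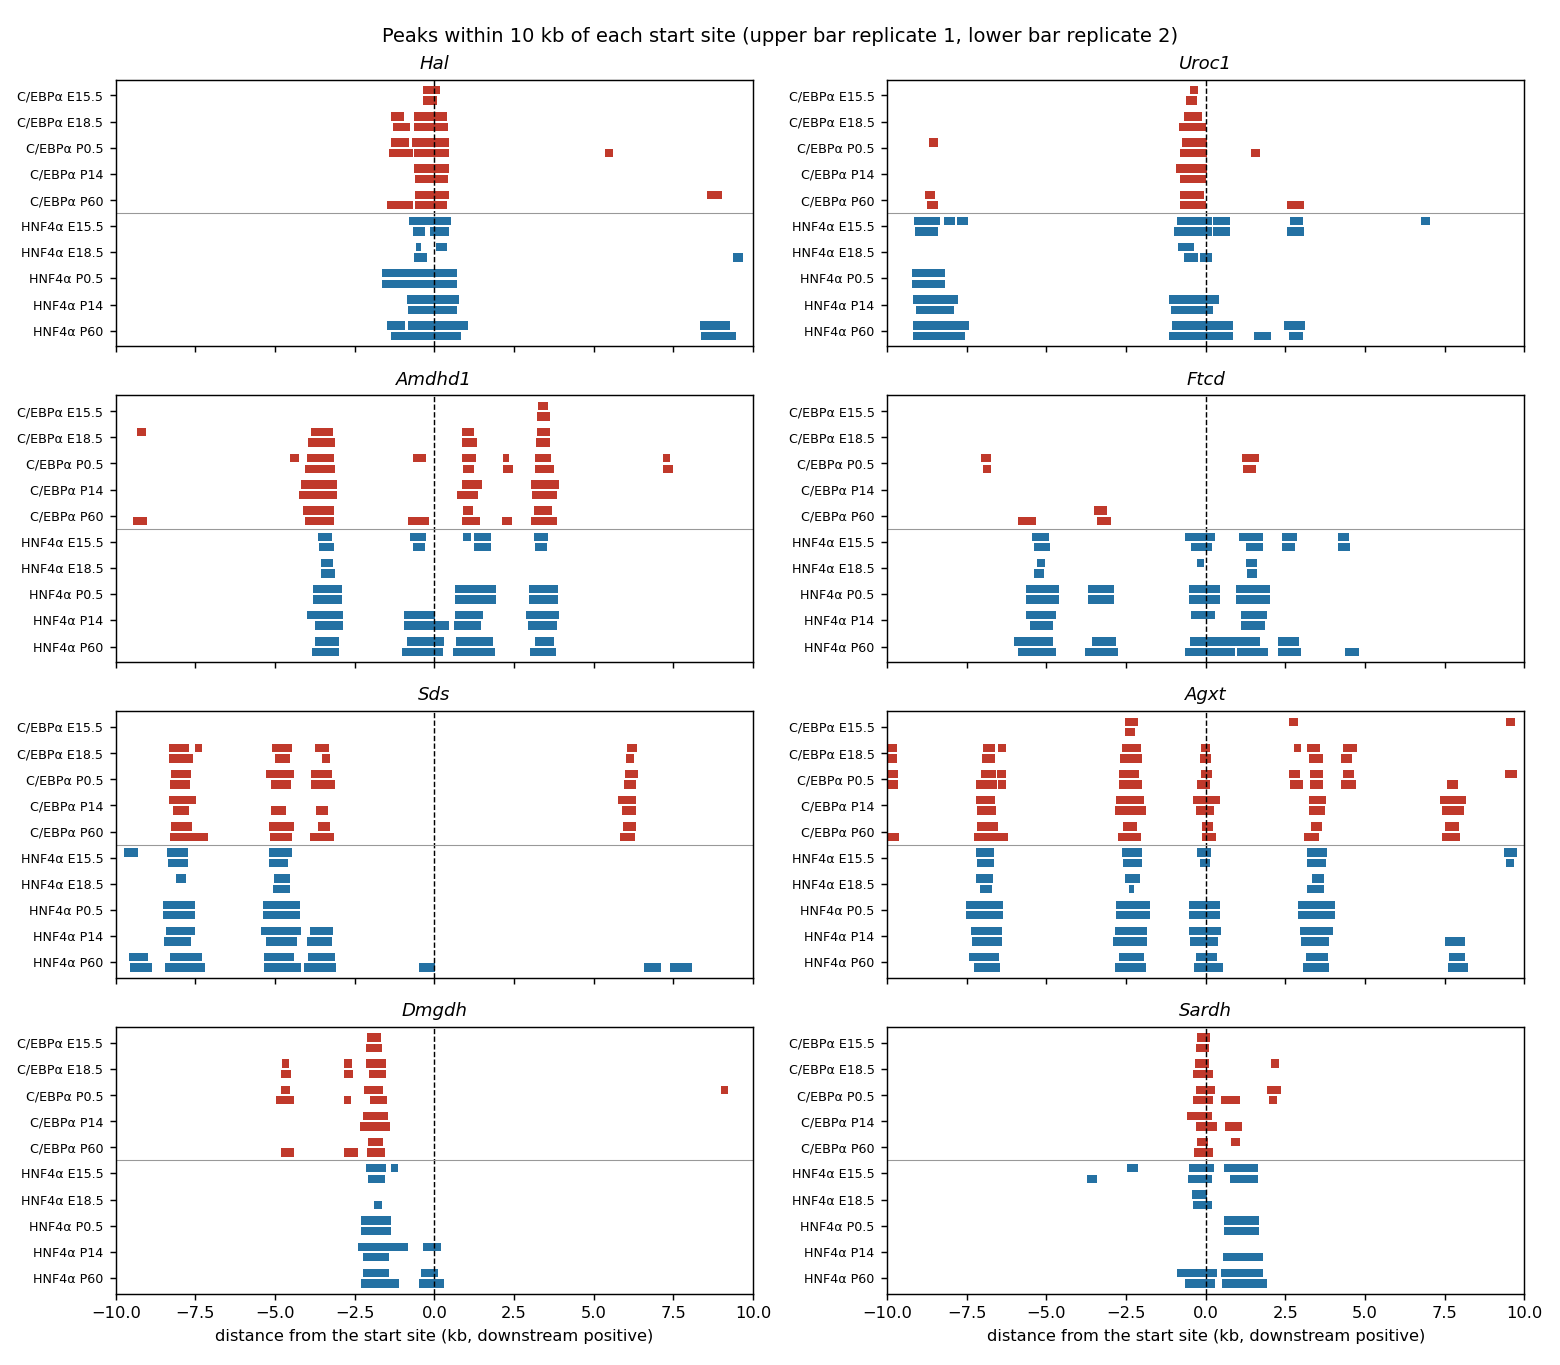
Peaks within 10 kb of each start site (horizontal axis, distance in kb, downstream positive), with C/EBPα rows above HNF4α rows and stages running from E15.5 to P60. Bars span each peak, with replicate 1 above replicate 2; the Hal column of bars at 0 runs through all rows, and the Sds bars that recur over stages lie upstream of the start or inside the gene, with a single bar across the start, of HNF4α replicate 2 at P60.

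Over the 8 genes and 10 kb on either side, overlapping peaks of all lists, factors and stages were merged into sites. Of the distinct sites, 62 held peaks of both replicates of a factor at some stage and were kept. Peaks counted in the same site need not overlap each other, as other peaks can join them. Of these 62, 28 held both factors, each at some stage, 17 held C/EBPα alone and 17 held HNF4α alone. C/EBPα was present at all 5 stages in 10 sites and HNF4α in 10. Both were present at all 5 stages in 4 sites, at the start of Hal, inside the 3′ part of Hal, upstream of Agxt and inside Dmgdh. The site inside Hal, chr10:92978149-92979448 on mm9, lies 26636 to 27935 bp downstream of the Hal start and within 10 kb of the 3′ end of Amdhd1, so it is counted with both genes.

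Set beside the RNA, Hal had both factors within 1 kb at 5 stages, Uroc1 and Sardh at 4 and Agxt at 3, and these 4 genes fell in both knockouts. Ftcd, with HNF4α and no C/EBPα within 1 kb of its start, fell in the HNF4α KO and did not pass in the C/EBPα KO. That description depends on the window, as C/EBPα peaks of Ftcd at P0.5 began 1146 and 1170 bp after the start. The C/EBPα peaks counted for Amdhd1 crossed the edge of the window, for example from 861 to 1249 bp and from 880 to 1337 bp at E18.5. Amdhd1, with both factors within 1 kb at the same 3 stages as Agxt, fell in the C/EBPα KO and did not pass in the HNF4α KO. Dmgdh had no C/EBPα within 1 kb and fell in both knockouts, and Sds had neither factor there and fell in the C/EBPα KO. Within 10 kb, C/EBPα was found at 6, 7, 8, 7 and 8 of the genes from E15.5 to P60, against backgrounds of 20.6%, 66.4%, 78.9%, 50.3% and 52.2%, and HNF4α at 8, 7, 8, 7 and 8, against 50.2%, 21.9%, 41.1%, 40% and 49.4%. The relation of peaks to RNA changes was not tested.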

How the data were processed

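RNA was measured in 8 liver libraries and binding of C/EBPα and HNF4α in 20 peak lists of 2 biological replicates per stage. RNA polymerase II and input samples, also among the 48 of the series, were left out as neither bears on the comparisons made. According to the submitters' processing notes, the tools and build were mm9, bcl2fastq, FastQC, BWA, TopHat2, Cufflinks, bedtools, DESeq and MACS 1.4, whose roles they do not give. The deposited RNA values are a score per gene: reads normalized by DESeq size factors, as the authors name the table, and rounded to whole numbers. The deposited GC content is a fraction per gene. The deposited peak lists give positions; their score column is 0 throughout, so no stricter peak threshold could be set.

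A test for counts had been planned; as the values are normalized, log2(value + 1) was fitted with limma 3.58.1 (variance trend, R 4.3.3), all 8 libraries in 1 fit by genotype, 2-sided, Benjamini-Hochberg adjusted over the 17771 genes with at least 10 in at least 2 libraries. The fit was tested on simulated data. All 8 enzymes passed the filter. The size factors set the scale of every library, and read depth before scaling is not given. The RNA columns are headed BR with the replicate number, which may stand for biological replicate but is not spelled out. Nothing else in the labels says that RNA replicates came from separate animals, so p-values set group differences against the spread between these samples. Start sites are the gene ends given in the deposited table, on its strand; peaks were handled in Python 3.11.15, with an overlap of at least 1 bp. The 8 enzymes and all lists were chosen with earlier results of these data known. All 8 are named; of the neighbours, those that passed and at least 1 per role are named; likeness genes are the 5 most like the mean and the 3 most like Hal and Sardh. Alternatives were other added numbers (0.5 and 10), no filter, other scalings, no variance trend, only the groups compared, a replicate block, each library left out, and other windows and rules for peaks. Replicate numbers were not taken to pair the libraries.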

Additional observations from a re-analysis of the deposited data

How the results depend on the processing

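No enzyme's log2 change reversed in sign. Scaling to library totals moved the median of all genes to 0.53 against 0.03 (C/EBPα KO minus WT, log2), and the share of lower calls to 40.6% against 76.4% there, and to 21.1% against 53.6% between knockouts, so most calls were then higher; the enzymes called became 5, 6 and 4 against 7, 6 and 3 (C/EBPα KO minus WT, HNF4α KO minus WT, C/EBPα KO minus HNF4α KO). After the data were seen, WT 3 and C/EBPα KO 1, lowest in GC correlation, were left out together: 4, 3 and 2 enzymes were called, 4 neighbours for the C/EBPα KO and 4 between knockouts, and 216, 347 and 138 genes against 666, 836 and 619. Without a variance trend 5 neighbours passed for the C/EBPα KO and 6 between knockouts, against 12 and 11. With only the compared groups fitted, 1267 genes passed for the HNF4α KO, and 320 genes and 6 neighbours between knockouts. Without a filter 403 passed between knockouts. Of 7 same-numbered pairs of libraries, 2 deviated together (r over 0.1; range -0.23 to 0.19), so the numbers were not taken as pairs; with the replicate block 5, 4 and 2 enzymes were called (lost: Dmgdh and Sardh, adjusted p 0.0573 and 0.082; Agxt and Sardh, 0.0626 and 0.0752; Agxt, 0.0757), with 486 genes for the HNF4α KO, and 288 genes and 6 neighbours between knockouts. Leaving out 1 library gave 311 to 804, 238 to 1372 and 88 to 855 genes, 3 to 15, 7 to 16 and 1 to 12 neighbours, and 5 to 8, 4 to 6 and 1 to 4 enzymes. Of 40 gene and stage pairs, 23 had C/EBPα and 25 HNF4α at the start site; within 10 kb 36 and 38, and with the gene body 36 and 40, wider windows by construction. The cause of the other differences was not tested. The start sites of another mm9 annotation were not run. With 2 or 3 libraries per group, changes of the size of Sardh sat at the threshold.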
